A study of Mus musculus with 6 samples.

Results

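A set of 6 genes known to be active in choroid plexus epithelium, most of them with secreted products, was followed on 6 arrays of mouse hippocampus. The set was named as 7 genes (Ttr, Kl, Sostdc1, Ecrg4, F5, Sulf1 and Enpp2), and every probe set whose only gene symbol was 1 of these names was taken. That gave 16 probe sets of 6 genes, out of 34945 probe sets of 18193 genes with 1 symbol. Enpp2, the lysophospholipase autotaxin, is not analysed here. The genes were chosen by their values on these arrays, with the differences between IκBα-deficient and control animals already known, so those differences, and where they fell in the fit over all genes, are given as a description and support no statement. Total RNA came from the hippocampi of mice aged 2 to 3 months. The 3 controls carried IκBα alleles of which 1 was floxed and 1 null (IκBαfl/-). The 3 IκBα-deficient animals had those alleles and Nestin-Cre (IκBαfl/-;Nestin-Cre), which recombines floxed DNA in neural precursors and the neurons and macroglia that come from them. Controls were littermates of the deficient animals, which the series describes as 3 pairs, but no label says which arrays form a pair. All 6 animals lacked 1 copy of the gene, and the deficient animals differed from the controls both in the deletion and in carrying Cre.

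The choroid plexus is a folded epithelium in the brain ventricles that secretes cerebrospinal fluid, and part of it lies along the fimbria of the hippocampus. Its cells release carrier proteins, hormones and growth factor antagonists into the fluid. Transthyretin, encoded by Ttr, carries thyroid hormone and retinol-binding protein and is the best known product of this epithelium in the brain. Klotho, encoded by Kl, is a membrane protein that serves as a co-receptor for an endocrine fibroblast growth factor and is also shed as a soluble form. IκBα, encoded by Nfkbia, holds NF-κB transcription factors in the cytoplasm.

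Values are log2 levels as deposited, made with RMA (a background correction, a quantile normalization and a summary over the probes of a probe set). Each gene is given by its brightest probe set unless another is named, with the mean ± SD over 3 arrays. On its brightest probe set, Nfkbia stood at 10.39, 10.35 and 10.31 on control arrays 1 to 3 and at 9.06, 9.13 and 8.66 on IκBα-deficient arrays 1 to 3. Every array thus had the Nfkbia level of its label, control array 1 included. IκBα-deficient array 2 stood apart in RNA quality. Its control probe sets at the 3′ ends of Gapdh and Actb exceeded those at the 5′ ends by 2.02 on average, against 0.556 to 0.725 on the other 5 arrays. Markers of hippocampal neurons were present throughout, with a mean over 10 genes between 10.59 and 10.75 on the 6 arrays.

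Control array 1 stood apart from the other controls in every member. On that array all 6 genes lay more than 1 log2 unit above control arrays 2 and 3, close to the levels of IκBα-deficient array 3. Over the 6 genes, the mean level was 9.19 on control array 1, 7.13 on control array 2 and 7.09 on control array 3. It was 9.97, 9.55 and 9.22 on IκBα-deficient arrays 1, 2 and 3. The control mean therefore averaged 1 high and 2 low arrays, at 7.80 ± 1.20 (SD, n = 3), while the deficient arrays stood at 9.58 ± 0.38 (SD, n = 3). The difference of these means was 1.78 on the log2 scale, 2.47 without control array 1. In bulk tissue, more choroid plexus cells in a sample and more RNA of these genes per cell cannot be told apart.

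**Figure D1:**
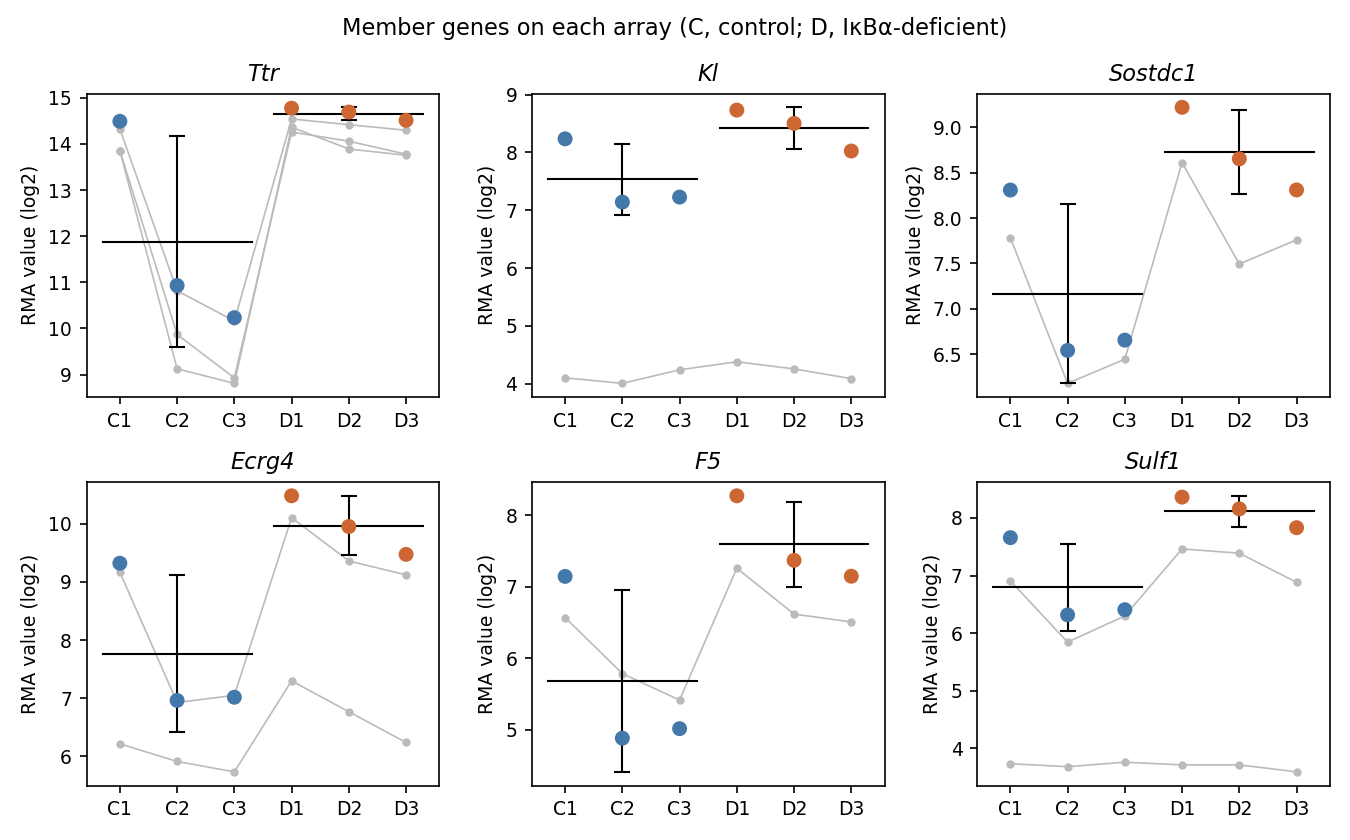
Log2 RMA values (vertical axes) of the 6 genes on control arrays C1 to C3 (blue) and IκBα-deficient arrays D1 to D3 (orange). Coloured points are the brightest probe set, grey points the other probe sets of the gene (joined only to mark a probe set), and black lines with bars the group mean ± SD. On the brightest probe set C1 lies above C2 and C3 in every panel, at about the level of D3.

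Ttr, the thyroid hormone and retinol carrier, had the widest spread. It was at 14.49, 10.93 and 10.23 on control arrays 1 to 3 and at 14.77, 14.69 and 14.51 on IκBα-deficient arrays 1 to 3. In all, 4 arrays were high and alike and control arrays 2 and 3 were low, and the deficient arrays lay above control array 1 by as little as 0.022. The group means were 11.88 ± 2.28 and 14.66 ± 0.13 (SD, n = 3), a difference of 2.77 ± 0.95 (SE) or 6.84-fold. On control array 1 Ttr was 3.91 above the mean of the other controls on the log2 scale. The high values sat at the ceiling of the scale. On IκBα-deficient array 1 Ttr gave the highest value of all probe sets, and it came within 0.139, 0.251 and 0.301 of the highest value on IκBα-deficient arrays 2 and 3 and control array 1. Differences among these 4 arrays may therefore be compressed, and the small SD of the deficient group was measured at that ceiling. The 2 Ttr probe sets with deficient means of 14.03 and 14.00 differed by 8.86-fold and 10.6-fold. Whether the ceiling held down the difference and fold of the brightest probe set was not tested. The other 3 Ttr probe sets gave the same order of controls, at 13.85 to 14.32 on control array 1, 9.13 to 10.82 on control array 2 and 8.81 to 10.16 on control array 3. On these 3, control array 1 lay above IκBα-deficient array 3, so the groups overlapped. All 4 Ttr probe sets are coded as shared between transcripts or as prone to cross-hybridization.

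Kl, the klotho co-receptor, was also low on control arrays 2 and 3, over a smaller range. It was at 8.23, 7.14 and 7.23 in the controls and at 8.73, 8.50 and 8.02 in the deficient animals. The groups overlapped, since control array 1 lay above IκBα-deficient array 3 by 0.21. The means were 7.53 ± 0.61 and 8.42 ± 0.36 (SD, n = 3), a difference of 0.88 ± 0.30 (SE) or 1.85-fold. The second Kl probe set (1451892_at) was dim, between 4.01 and 4.38 on all 6 arrays, and differed by 0.12 ± 0.10 (SE).

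Sostdc1 encodes a secreted antagonist of bone morphogenetic proteins that also modulates Wnt signalling. It was at 8.31, 6.54 and 6.65 in the controls and at 9.22, 8.65 and 8.31 in the deficient animals. Control array 1 and IκBα-deficient array 3 differed by only 0.00135, so the groups touched. The means were 7.17 ± 0.99 and 8.73 ± 0.46 (SD, n = 3), and the difference was 1.56 ± 0.45 (SE) or 2.95-fold. On its second probe set (1460250_at) control array 1, at 7.78, lay above IκBα-deficient arrays 2 and 3 at 7.49 and 7.76.

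Ecrg4, or augurin, encodes a precursor from which peptides are released. Its values were 9.32, 6.96 and 7.01 in the controls and 10.49, 9.96 and 9.48 in the deficient animals. The deficient arrays lay above the controls, by 0.15 at the closest. The means were 7.77 ± 1.35 and 9.97 ± 0.50 (SD, n = 3), and the difference was 2.21 ± 0.60 (SE) or 4.62-fold. The probe sets 1423261_at and 1440780_x_at differed by 1.82 ± 0.58 and 0.82 ± 0.25 (SE), and on the first of them control array 1 at 9.17 was above IκBα-deficient array 3 at 9.12.

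F5 encodes coagulation factor V, the cofactor with which factor Xa makes thrombin. It was at 7.14, 4.88 and 5.01 in the controls and at 8.27, 7.37 and 7.15 in the deficient animals. Control arrays 2 and 3 were low, below the array medians of 6.08 to 6.13, where RMA compresses differences. Control array 1 lay 0.0028 below IκBα-deficient array 3. The means were 5.68 ± 1.27 and 7.59 ± 0.60 (SD, n = 3), and the difference was 1.92 ± 0.58 (SE) or 3.78-fold. The other probe set of F5 (1449269_at) differed by 0.87 ± 0.31 (SE).

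Sulf1 encodes an extracellular sulfatase that removes sulfate groups from heparan sulfate. It was at 7.66, 6.32 and 6.41 in the controls and at 8.36, 8.16 and 7.83 in the deficient animals, which lay above control array 1 by at least 0.17. The means were 6.79 ± 0.75 and 8.12 ± 0.27 (SD, n = 3), and the difference was 1.32 ± 0.33 (SE) or 2.50-fold. Probe set 1436319_at differed by 0.89 ± 0.27 (SE). Probe set 1446416_at was dim on every array, between 3.59 and 3.76, and differed by -0.05 ± 0.07 (SE).

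**Figure D2:**
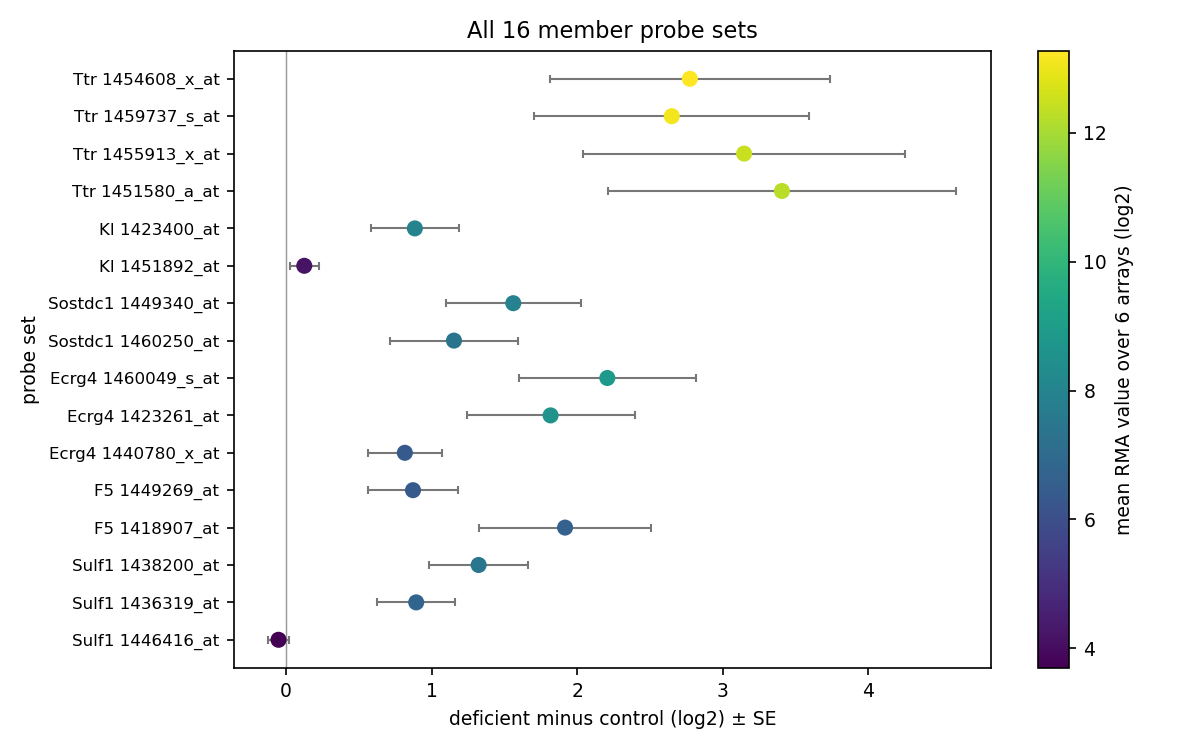
Difference between IκBα-deficient and control means (horizontal axis, log2, bars ± SE of the limma fit) for the 16 probe sets of the 6 genes, coloured by their mean over the 6 arrays. The dimmest probe sets, 1 of Kl and 1 of Sulf1, lie near 0, at 0.12 and -0.05, and the other 14 lie between 0.82 and 3.41.

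Of the 16 probe sets, 15 had a higher mean in deficient animals (49.7% of all probe sets), and 6 had all deficient arrays above all controls, where 5.09% of all probe sets did. None of the 16 passed an adjusted p of 0.05 in the fit over probe sets (limma, Benjamini-Hochberg), where 0% of all probe sets passed as higher and 0.0114% in either direction. Control array 1 was above control arrays 2 and 3 on 14 of the 16 (27.9% of all probe sets), and at or above IκBα-deficient array 3 on 10 (50.8%). Control arrays 2 and 3 lay below all 3 deficient arrays on 14 (9.29%). Among the deficient arrays, array 1 gave the highest of all 6 values on 15 probe sets (14.8%), and array 3 gave the lowest of the 3 on 15 (37.5%).

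Counted by gene, 6 of 6 were higher in deficient animals, where 52.6% of all genes were, and 5 of 6 had deficient arrays wholly above the controls, where 5.94% of all genes did. Sostdc1 and F5 were separated by only 0.00135 and 0.0028, and the 5 fell to 2 when quantile normalization was repeated or the mean of all probe sets was taken. A difference of 1 or more was seen for 5 of the 6 and for 0.121% of all genes. The median difference was 1.74 over the 6 genes and 0.01 over all genes. None of the 6 passed an adjusted p of 0.05 (limma, Benjamini-Hochberg over 18193 genes), where 0% of all genes passed, and 857 genes had an unadjusted p under 0.05. These counts rest on the contrast by which the genes were chosen, and nothing is read from them. Left without control array 1, the same fit called 5 genes higher, 0.0275% of all genes. These were Ttr, Ecrg4, Sulf1 and the choroid plexus channel genes Clic6 and Kcne2. The array left out was the control that was high in all 6 members, so these calls are no test of the members either. The differences in that fit were 4.08 ± 0.20 for Ttr, 2.99 ± 0.26 for Ecrg4 and 1.76 ± 0.15 for Sulf1 (SE), and 1.23, 2.13 and 2.65 for Kl, Sostdc1 and F5. With IκBα-deficient array 2 also left out, a choice made after seeing the data, the differences ran from 1.19 for Kl to 4.06 for Ttr and 0 genes were called by limma, with 943 at an unadjusted p under 0.05.

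**Figure D3:**
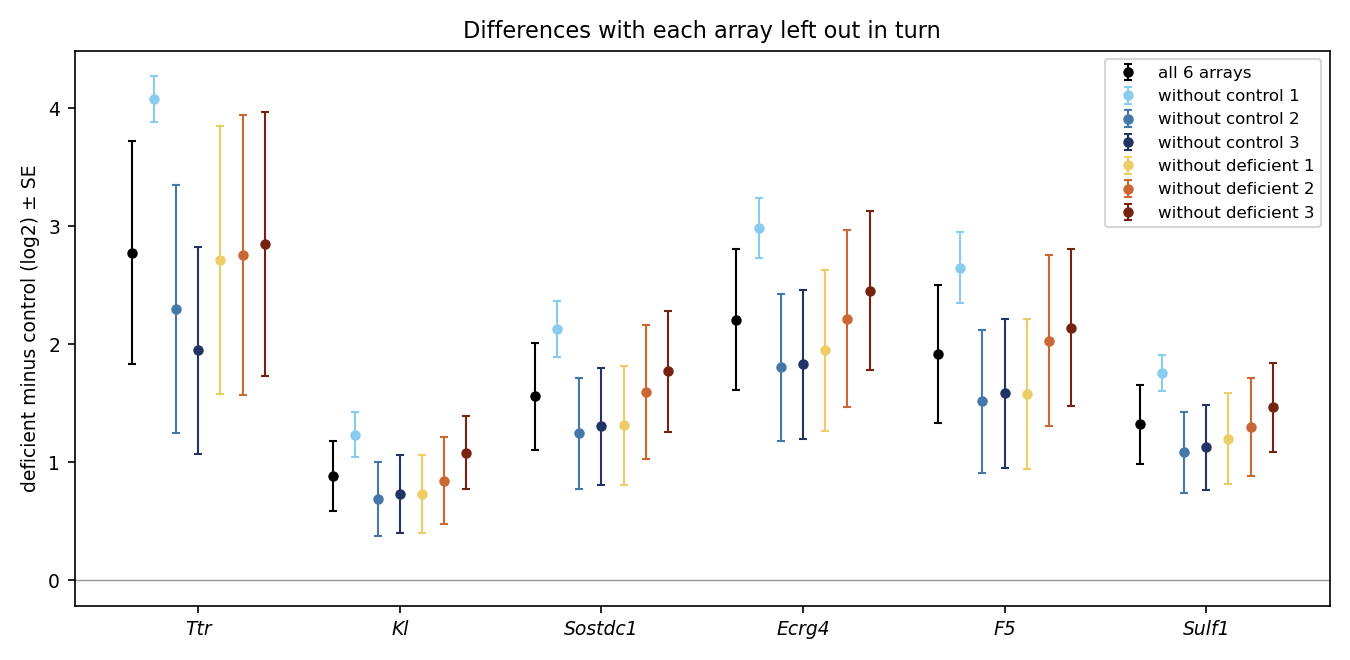
Difference between IκBα-deficient and control means (vertical axis, log2, bars ± SE of the limma fit) for the 6 genes with all arrays (black) and with each array left out in turn. Differences are highest and their bars shortest without control array 1, for example 4.08 ± 0.20 for Ttr against 2.77 ± 0.95 with all arrays.

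Within the controls alone, which share a genotype, the 6 genes were among the most variable of the array. By control SD, Ttr ranked 1 of 18193 genes, Ecrg4 ranked 5, F5 ranked 6, Sostdc1 ranked 9, Sulf1 ranked 15 and Kl ranked 22. The members were chosen by their values on these arrays, so the ranks are only a description. Control array 1 exceeded each of the other controls by 1 or more for 15 genes, or 0.0824% of all genes, a comparison chosen after the values were seen. These 15 comprised the 6 members, 7 other markers of choroid plexus epithelium (Calml4, Cldn2, Clic6, Folr1, Kcne2, Kcnj13 and Otx2) and 2 further genes. Those 2 were Cldn1, a tight junction claudin, at 6.64 against 5.43 and 5.58, and Cbln1, a synapse organizer, at 8.29 against 7.21 and 7.16. No gene was lower by as much on control array 1. The number of genes with as large an SD among the deficient arrays was 68 for F5, 133 for Ecrg4, 183 for Sostdc1, 378 for Kl, 1046 for Sulf1 and 6088 for Ttr, the last at the ceiling of the scale.

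Other markers of choroid plexus epithelium were also lowest, by their mean, on control arrays 2 and 3. Of 27 listed, 25 were measured, and all 25 had a higher mean in deficient animals, where 52.6% of all genes did. Of the 25, 7 lay wholly above the controls (5.94% of all genes) and 0 passed the fit over all genes. The list was chosen with earlier results of these data known, so these counts are a description and no independent test. The mean level of the 25 genes was 7.15, 6.14 and 6.08 on control arrays 1 to 3 and 7.80, 7.43 and 7.10 on IκBα-deficient arrays 1 to 3. Control array 1 was above the other controls for 24 of the 25, where it was for 28.9% of all genes. Clic6, a chloride channel protein, stood at 8.66, 4.65 and 4.96 in the controls and at 9.59, 9.18 and 8.54 in the deficient animals. The potassium channel gene Kcnj13 was at 8.44, 5.76 and 4.59 against 9.23, 8.66 and 8.30. Kcne2, a potassium channel subunit, was at 7.25, 4.16 and 4.09 against 7.91, 7.33 and 6.86. Otx2, a transcription factor that this epithelium needs to form, was at 6.07, 3.76 and 4.06 against 7.21, 6.11 and 6.06. In these 4 genes control array 1 again overlapped the deficient arrays. The amount of choroid plexus tissue in each sample was not measured, and its part in the member values was not tested.

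**Figure D4:**
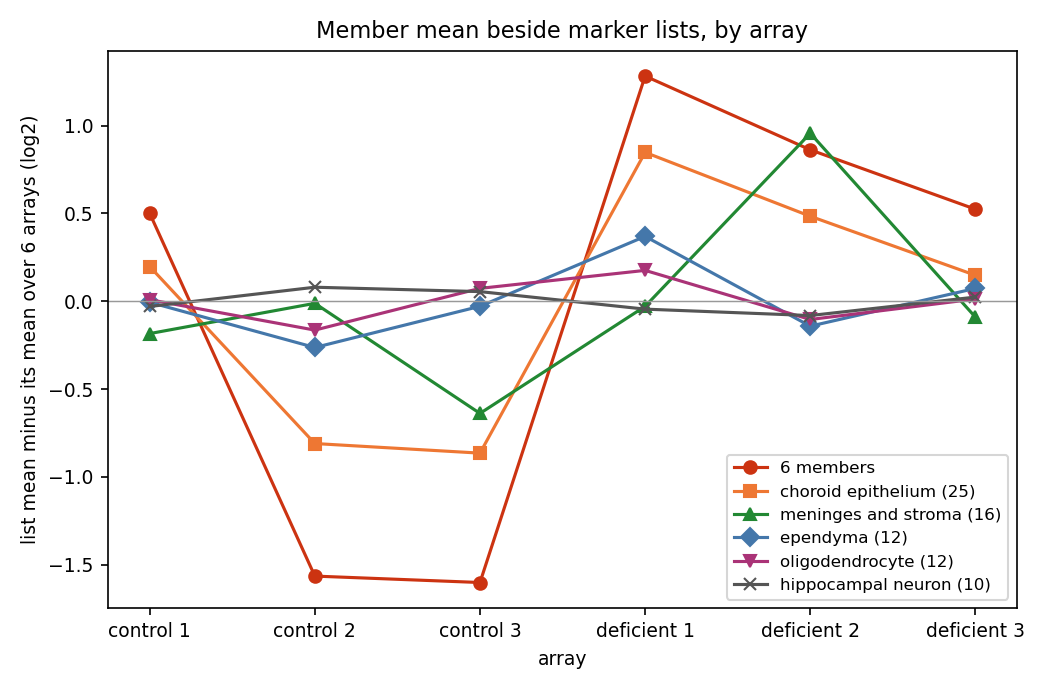
Mean of each gene list on each array minus the list's mean over the 6 arrays (vertical axis, log2), with the number of genes in brackets and lines joining the points of a list. The 6 members and the 25 other choroid epithelium markers are low on control arrays 2 and 3 and highest on IκBα-deficient array 1, while the 16 meningeal and stromal genes are highest on IκBα-deficient array 2. The ependymal and oligodendrocyte means are also highest on IκBα-deficient array 1.

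Neighbouring tissues gave other orders, though the means of some were also highest on IκBα-deficient array 1. The 16 meningeal and stromal genes had means of 7.61, 7.78 and 7.16 in controls and 7.77, 8.75 and 7.71 in deficient animals. All 16 were higher in deficient animals (52.6% of all genes), and 4 were wholly above the controls (5.94% of all genes). IκBα-deficient array 2 was the highest for 13 of the 16, for 0 of the 6 members and for 5893 of all 18193 genes. The excess of 3′ over 5′ ends of Gapdh and Actb was also greatest on that array, at 2.02, and the part of RNA quality was not tested. Igf2, a growth factor made by meninges and choroid plexus, was at 9.58, 9.55 and 8.76 against 10.49, 11.04 and 10.01, and the collagen gene Col1a2 was at 8.45, 8.53 and 7.84 against 8.72, 9.98 and 8.60. Fmod and Col3a1 differed by 0.99 and 0.82. Ependymal genes, from the ciliated lining of the ventricles, were higher in 12 of 12, by 0.20 on average. Their means were 7.19, 6.93 and 7.17 against 7.57, 7.06 and 7.27, and the widest differences were 0.34 for Mia, 0.31 for Rsph1 and Ak7, and 0.27 for Dynlrb2. Oligodendrocyte genes were higher in 10 of 12 by 0.06 on average, with Aspa at 0.16, Cldn11 at 0.11, Opalin at 0.10 and Ugt8a at 0.08. As in the 6 members, IκBα-deficient array 1 was the highest for 11 of 12 ependymal and 10 of 12 oligodendrocyte genes. Over all genes it was the highest for 2492 of 18193. Endothelial genes were higher in 6 of 9 (mean 0.06), with Kdr at 0.24, Pecam1 at -0.19, Abcb1a at 0.18 and Cdh5 at 0.17. Genes of pericytes and smooth muscle were higher in 8 of 9 (mean 0.14), led by Pdgfrb at 0.39, Abcc9 at 0.33, Acta2 at 0.18 and Kcnj8 at 0.17. Markers of the thalamus were higher in 5 of 7 (mean 0.09), and Slc17a6, its vesicular glutamate transporter, was high on control array 1 as well, at 9.76, 9.15 and 8.94 against 9.72, 9.76 and 9.37. Prkcd differed by 0.22, Adarb1 by -0.16 and Ntng1 by 0.15. Hippocampal neuron markers were lower in 8 of 10 (mean -0.07), with C1ql2 at -0.28, Slc17a7 at -0.17 and Fibcd1 at -0.14, while Neurod6 was higher by 0.24. None of the genes in these lists passed the fit over all genes.

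The array profiles of the members were compared as the root mean square distance between log2 values, each gene centred on its own mean over the 6 arrays. Among the members, Ecrg4 and F5 were closest at 0.19, then Sostdc1 and Sulf1 at 0.22 and Kl and Sulf1 at 0.24, while Ttr and Kl were farthest apart at 1.37. Among 9092 other genes brighter than the median gene, those closest to the mean of the members were Pcolce (0.64), Igf2 (0.72), Zic1 (0.73), Slc13a4 (0.78) and Igfbp2 (0.83). Pcolce, an enhancer of procollagen processing, was at 7.76, 7.34 and 6.68 against 8.33, 8.97 and 8.04, with less of a gap between control array 1 and the others. Member by member, Pcolce was also closest to Ttr (1.34), Sostdc1 (0.56), Ecrg4 (0.84), F5 (0.79) and Sulf1 (0.38), and Vat1l was closest to Kl (0.27). Next in line were Igf2 for Ttr (1.42) and Sulf1 (0.46), Zic1 for Sostdc1 (0.58), Ecrg4 (0.90) and F5 (0.79), and Igfbp2 for Kl (0.32). With the limit on brightness dropped, a choice made after seeing the data, Otx2 was closest to the member mean at 0.22, and 8 of the 10 closest genes were on the choroid epithelium list. They were Otx2, Cldn2 (0.37), Calml4 (0.41), Kcne2 (0.42), Col8a1 (0.46), Aqp1 (0.47), Steap1 (0.49) and Folr1 (0.50).

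The set of promoter windows searched held 3 of the 6 genes, shown because all 3 were low on control arrays 2 and 3. Ttr, Sostdc1 and Sulf1 had no window in that set, and their promoters were not examined. Each window runs from 250 bases before to 50 bases after the annotated start on the plus strand (RefSeq, GRCm38.p6), with CpG dinucleotides in capitals.
Kl chr5:150952357-150952656: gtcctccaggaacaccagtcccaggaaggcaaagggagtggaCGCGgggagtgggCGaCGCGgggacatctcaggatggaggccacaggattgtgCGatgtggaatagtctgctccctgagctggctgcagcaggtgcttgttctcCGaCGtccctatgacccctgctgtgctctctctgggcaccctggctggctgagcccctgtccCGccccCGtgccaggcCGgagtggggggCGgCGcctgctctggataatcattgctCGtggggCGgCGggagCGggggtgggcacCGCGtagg
Ecrg4 chr1:43730352-43730651: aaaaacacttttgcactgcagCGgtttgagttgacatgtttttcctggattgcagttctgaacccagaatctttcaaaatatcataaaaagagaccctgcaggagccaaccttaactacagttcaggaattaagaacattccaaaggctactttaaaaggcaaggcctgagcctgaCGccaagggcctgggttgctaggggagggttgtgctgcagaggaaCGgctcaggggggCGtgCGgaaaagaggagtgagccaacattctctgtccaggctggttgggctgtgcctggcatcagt
F5 chr1:164151585-164151884: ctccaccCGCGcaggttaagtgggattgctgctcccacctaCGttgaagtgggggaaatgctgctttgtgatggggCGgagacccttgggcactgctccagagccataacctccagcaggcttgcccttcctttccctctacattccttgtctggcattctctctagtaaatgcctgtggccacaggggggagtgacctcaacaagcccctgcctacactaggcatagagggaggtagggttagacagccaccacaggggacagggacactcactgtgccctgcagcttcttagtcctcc
The Kl window was CpG-rich, with 19 CpG and 67.3% G and C, against medians of 7 and 52.7% over 32851 windows of that length. Ecrg4 had 5 CpG and F5 had 4, with 50.0% and 57.7% G and C. The OTX2 core TAATCC, searched on both strands, was in none of the 3 windows and in 7.06% of the 32851 windows searched. Of the choroid epithelium list, 22 genes had a window in that set, and 3 of them held the core. The kappaB consensus was in none of the 3 either, in 4.51% of the 32851 windows searched and in those of 0 of the 22 genes. Absence means only that these letters are not in these windows.

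Genes that work with the members were listed by pathway, and none passed the fit over all genes. Beside the counts below, 52.6% of all genes were higher in deficient animals. Around Ttr, 13 of 16 listed genes of thyroid hormone and retinol handling were measured, 6 higher and 7 lower in deficient animals (median difference -0.01). Dio2, the deiodinase that activates thyroid hormone in astrocytes, was at 10.36, 9.96 and 10.15 in controls and at 9.76, 9.85 and 9.69 in deficient animals. Its deficient arrays lay wholly below the controls, with a difference of -0.39 ± 0.11 (SE). Rbp4, the retinol carrier that binds transthyretin, differed by 0.11, the receptor Thrb by 0.10 and the corepressor Hr by 0.08. Around Kl, 9 of 11 measured genes were higher (median 0.09). The fibroblast growth factor receptor gene Fgfr2 differed by 0.19, the vitamin D receptor Vdr by 0.19, Adam10, a protease that sheds klotho, by 0.12 and Fgf21 by -0.25.

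Around Sostdc1, 16 of 21 genes of bone morphogenetic protein and Wnt signalling were higher (median 0.08). Of the 21, 4 lay wholly above the controls, where 5.94% of all genes did. So did 1 of 11 measured genes around Kl, 2 of 18 around F5 and 1 of 18 around Sulf1. The count was 3 of 16 for lysophosphatidic acid signalling and 0 of 13 around Ttr. Lrp4, a receptor that binds Sostdc1, was at 8.67, 8.60 and 8.64 in controls and at 8.91, 8.97 and 9.08 in deficient animals. Here control array 1 lay with the other controls, and the difference was 0.35 ± 0.07 (SE). The ligands Bmp6, Bmp5 and Bmp7 differed by 0.56, 0.49 and 0.43, each highest on IκBα-deficient array 2, at 7.50, 7.33 and 7.72. Around F5, 13 of 18 coagulation genes were higher (median 0.06). F13a1, the transglutaminase subunit, differed by 0.60, Vwf by 0.45 and the anticoagulant receptor Thbd by 0.42, all of them highest on IκBα-deficient array 2, and Pros1 by 0.12. Around Sulf1, 9 of 18 heparan sulfate genes were higher in deficient animals and the other 9 lower (median 0.004). The sulfotransferases Hs6st3 and Hs6st2 differed by -0.22 and 0.14, the syndecan Sdc3 by -0.14 and heparanase, Hpse, by -0.11. Of 16 measured genes of lysophosphatidic acid signalling, in which autotaxin makes the ligand, 11 were higher (median 0.06). The receptors Lpar6 and Lpar1 differed by 0.32 and 0.14, Pla1a by 0.19 and the phosphatase Plpp2 by 0.16.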

How the data were processed

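Hippocampal RNA of 6 mice was measured on Affymetrix mouse arrays, 1 per animal. The deposited values are log2 values made by the authors with RMA, per the submitters' processing notes. Its version is not given in the sources used here. Quantile normalization within RMA gives all arrays nearly 1 distribution (sorted values differed by at most 0.10), so a rise of one group of genes is relative to the rest. Arrays have no read depth, and their number limits the precision.

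Of 45101 probe sets, 64 were controls, 34945 had 1 gene symbol in GEO's platform annotation, 932 had several and 9160 had none here. Each gene took its brightest probe set by mean. IκBα-deficient and control arrays were compared with limma 3.58.1 in R 4.3.3 (lmFit, eBayes, two-sided, no covariates), adjusted by Benjamini-Hochberg with a threshold of 0.05 over all genes, and in a second fit over all 34945 probe sets. The labels call the arrays biological repeats, and since they tie no numbers to the 3 littermate pairs, the arrays were fitted as independent. The fit was tested on simulated data. Named genes are the members, Nfkbia, the 4 genes of each list with the widest difference, and the closest profiles (5 for the member mean, 2 for each member). The members and lists were chosen with earlier results of these data known. Alternatives left out each array, the 40% dimmest genes or probe sets coded s, x or a, added the repeat number, renormalized, averaged probe sets, or changed the variance model.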

Additional observations from a re-analysis of the deposited data

How the results depend on the processing

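The differences of the 6 genes kept their sign in all 65 values under the 11 alternatives that can change them, and 1 moved by more than 1 SD between replicates. That was Sulf1 with the mean of its probe sets, at 0.72, which includes its dim probe set. The mean difference of the members was 1.42 to 2.47 with 1 array left out, and 2.49 without control array 1 and IκBα-deficient array 2. The count of genes called by limma, 0 in all, was 0 to 5 with 1 array left out, with 5 without control array 1 and 1, Nfkbia, without IκBα-deficient array 3. It was 1 with arrays centred on their medians, without the 40% dimmest genes, with the mean of all probe sets, without probe sets coded s, x or a, or with a mean-variance trend and robust settings, and 4 over all probe sets, in each case Nfkbia, lower. The probe sets called numbered 4, all of Nfkbia, and 1 to 7 with 1 array left out. There were 7 of 34945 without control array 1, 4 of them of the members. That array was the control that was high in all 6 members, so these calls are no test of the members. There was 1 without control array 3, and there were 2 without control array 2 or IκBα-deficient array 1 or 2. The members with wholly separated groups, 5 of 6, were 2 after quantile normalization again, 2 with the mean of all probe sets, and 3 of 5 without probe sets coded s, x or a, which leaves Ttr out. The cause of these shifts was not tested. With the repeat number as a replicate block, 0 genes and 2 probe sets were called. The SE of the member differences was then smaller, from 0.16 for Kl to 0.71 for Ttr, against 0.30 and 0.95 without the block. Same-numbered arrays had deviations from their group means that correlated across genes at 0.061, 0.238 and 0.195. IκBα-deficient arrays 2 and 3 correlated best with the control of the same number, and IκBα-deficient array 1 with control array 3 (0.143). These values do not settle the pairing. The arrays were fitted as independent because no label ties the numbers to pairs. Values near the ceiling (Ttr) and dim values (F5 on control arrays 2 and 3) limit what the arrays can resolve.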
